A study of Mus musculus with 30 samples.

Results

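The genes described here encode the natriuretic peptides ANP (Nppa), BNP (Nppb) and CNP (Nppc), the receptors Npr1, Npr2 and Npr3, and Corin. These 7 genes were taken by name from the 43629 genes counted in each library of mouse heart RNA. All hearts came from wild-type C57BL/6J mice. In 3 groups a coronary artery had been tied under isoflurane on day 0 to produce a myocardial infarction (MI), and hearts were taken on day 2, 4 or 7. The 3 sham groups had the same anaesthesia, chest opening and pericardium removal without the ligation and were taken on the same days. Each of the 6 groups held 5 libraries, numbered as replicates 1 to 5, which makes 30 in all. The labels do not state age, sex, the part of the heart taken or whether animals were pooled, so p-values measure the spread between these libraries. In RNA from whole tissue, fewer cells of a type and less RNA per cell cannot be told apart.

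ANP and BNP are released by cardiac muscle cells when the wall is stretched, ANP mainly by the atria. Both bind Npr1, a membrane receptor that makes cyclic GMP and so relaxes vessels, promotes salt loss and restrains growth of the heart. CNP, known mostly from endothelium, acts through the related cyclase Npr2, while Npr3 lacks a cyclase domain and takes the peptides up for degradation. Corin is a serine protease on the surface of cardiac muscle cells that cuts pro-ANP to the active hormone. Nppa and Nppb are textbook markers of load on the ventricle.

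Nppb (ENSMUSG00000029019) and Nppa (ENSMUSG00000041616) are neighbours on the plus strand of chromosome 4 in GRCm38, at 147985788 to 147987205 and at 148000722 to 148002079, with 13516 bp between them. Their upstream DNA is shown because both transcripts were higher in MI hearts. In the 250 bases before each RefSeq start site (RefSeq table, GRCm38.p6), letters recognised by cardiac factors were searched on both strands: GATAA (GATA factors), CATTCC (TEAD factors), TGANTCA (AP-1) and the CArG box (Srf). GATAA occurred 2 times in either window, and capitals mark it, also where it reads TTATC because the match is on the minus strand. The Nppa bases are chr4:148000472-148000721, plus strand. The Nppb bases are the stretch around its matches, chr4:147985801-147985826, plus strand, which the GENCODE annotation places in a longer 5′ UTR of Nppb.
Nppa: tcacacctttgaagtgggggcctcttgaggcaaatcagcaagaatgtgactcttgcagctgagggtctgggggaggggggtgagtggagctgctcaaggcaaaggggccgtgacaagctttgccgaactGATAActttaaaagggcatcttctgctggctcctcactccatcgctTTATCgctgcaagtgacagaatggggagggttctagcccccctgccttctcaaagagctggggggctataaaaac
Nppb: cagctGATAAatcagaGATAAcccca
Of 32851 RefSeq windows of the same length, 22.6% held GATAA at least 1 time and 4.28% held it at 2 or more positions. CATTCC was found 1 time in the Nppb window and 0 times in the Nppa window, and 12.6% of windows held it. TGANTCA (6.75% of windows) and the CArG box (1.47%) had 0 matches in either window. No matching motif overlapped another. These are matches of letters and were not tested as binding sites.

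The libraries held 7841930 to 14070017 counts on genes, so that 3 counts were worth 0.213 to 0.383 counts scaled to the library total (CPM). In 6 libraries (sham day 4 replicates 2 and 3, sham day 7 replicates 1, 2 and 3, and MI day 7 replicate 2) the lung genes Sftpc and Scgb1a1 summed to 168 to 1642 CPM, against at most 24.0 CPM elsewhere. MI day 7 replicate 4 held 600 CPM of the skeletal muscle genes Myh1 and Mylpf, against at most 1.69 CPM elsewhere. For the 7 genes described here, calls that were lost without the lung-transcript libraries are given with both values. Calls of the other named genes were not looked at again without these libraries. For the ratios described further on, leaving them out left 5 against 3 libraries at day 4 and 4 against 2 at day 7, where the exact test cannot give a p under 0.0357 and 0.133 before adjustment. The numbers in the library names also differ between day 2 and the later days, so in levels set across them the day and this number cannot be told apart. The 8 markers of cardiac muscle cells were counted in every library and summed to 28791 to 39662 CPM in MI hearts and 37625 to 57002 CPM in sham hearts.

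Both cardiac peptide genes were higher in MI hearts on every day, Nppb by the larger factor at day 2, while Corin and Npr2 were lower on every day. Npr3 was also lower on all 3 days and Npr1 on days 2 and 4. However, several receptor calls rested on single libraries or on the scaling, and the day 2 call of Nppa rested on single libraries. Beside this, 6, 7 and 7 of 7 leukocyte markers were higher in MI hearts at days 2, 4 and 7 (median log2 fold changes 1.18, 1.55 and 1.78). They summed to 627 to 2351 CPM in MI hearts and 341 to 732 CPM in sham hearts, with none at 0 counts in any library, and their part in the lower values of Corin and the receptors was not tested. An edgeR quasi-likelihood test on the counts of all genes, with Benjamini-Hochberg adjustment over all genes tested, called 6 of the 6 members tested at day 2, 6 of 6 at day 4 and 5 of 6 at day 7. The same test called 46.3% of all genes tested at day 2, 52.7% at day 4 and 55% at day 7, so a call as such is common in these hearts. Of the members called, 2 were higher on each day, against 24.1%, 27.5% and 28.4% of all genes tested at days 2, 4 and 7. There were 4 lower members at day 2, 4 at day 4 and 3 at day 7, against 22.2%, 25.2% and 26.6% of all genes. Nppc had too few counts for this test.

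**Figure D1:**
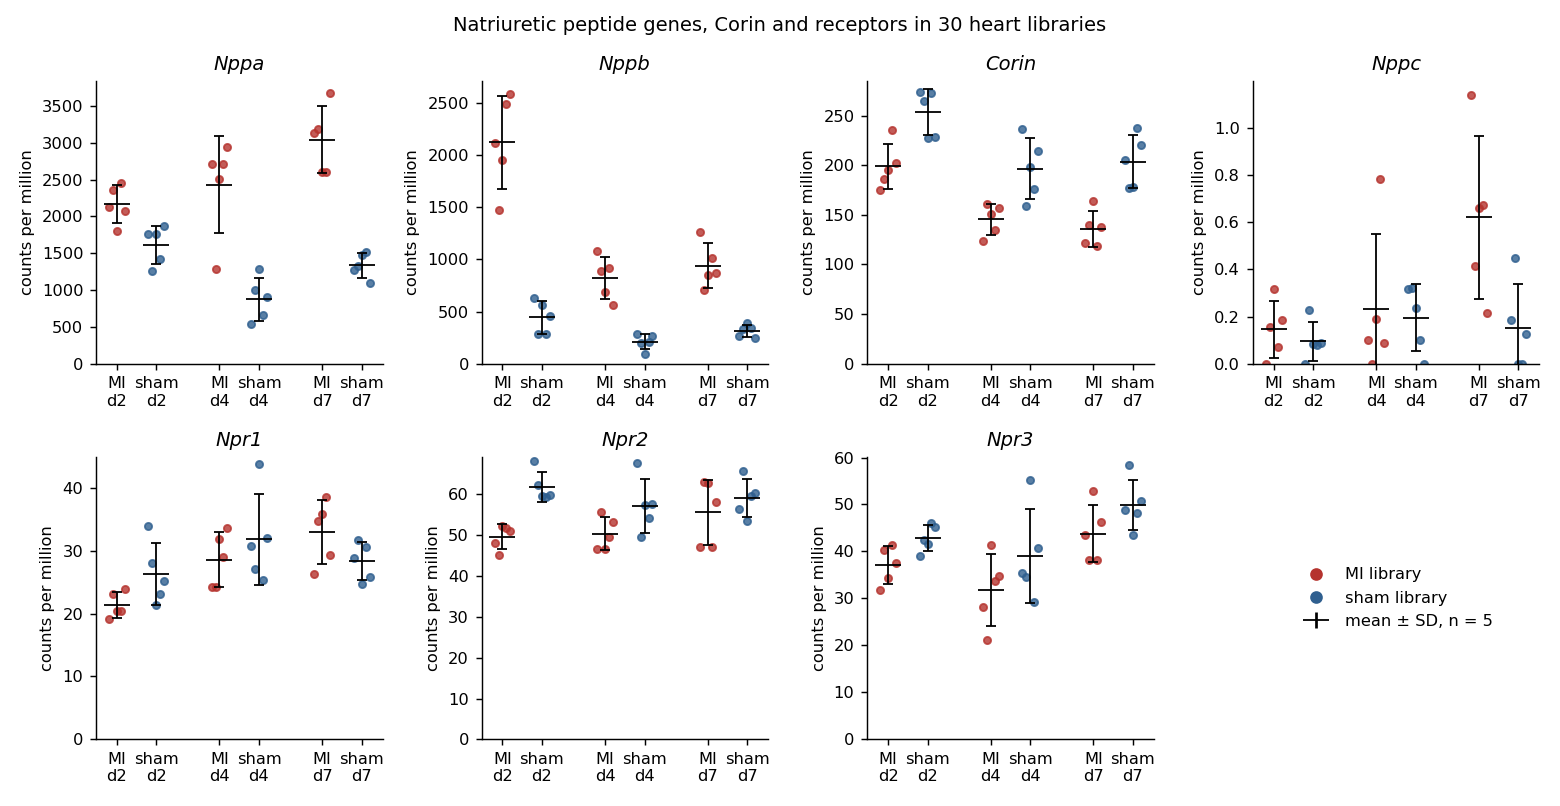
Counts scaled to the library total (CPM) of 7 genes in each of 30 libraries, 1 panel per gene, with MI left of sham at days 2, 4 and 7; points are libraries and black bars the mean ± SD of 5. Nppb lies higher in every MI library than in every sham library of its day, and Nppa does so at days 4 and 7.

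Nppb, the gene of B-type natriuretic peptide, differed most at day 2. At that day it had 2112, 1472, 1952, 2484 and 2583 CPM in MI hearts, against 631, 284, 564, 288 and 455 CPM in sham hearts. The lowest MI heart stood above the highest sham heart by more than the whole spread of the sham group. The mean was 2120.5 ± 446 CPM in MI hearts and 444 ± 157 CPM in sham hearts (SD, n = 5 each), and the edgeR log2 fold change was 2.17 (SE 0.25, adjusted p = 2.00e-05), which is 4.49-fold. At day 4 the 5 MI hearts had 1078, 883, 683, 915 and 565 CPM and the 5 sham hearts 285, 198, 97.4, 211 and 264 CPM. At day 7 the values were 1264, 702, 851, 1012 and 867 CPM in MI hearts, against 266, 331, 387, 346 and 249 CPM in sham hearts. The groups did not overlap on any of the 3 days. Not overlapping and higher in MI was seen for 20.3%, 28.2% and 29.3% of all genes tested at days 2, 4 and 7. The log2 fold change was 1.78 at day 4 (SE 0.28, edgeR adjusted p = 0.000325) and 1.38 at day 7 (SE 0.17, edgeR adjusted p = 2.14e-05). The fall of this difference over the days was not called: its change was -0.76 (SE 0.36, edgeR adjusted p = 0.138) for day 7 minus day 2. In sham hearts the mean level was 444 CPM at day 2 (libraries with another name number), 211 CPM at day 4 and 316 CPM at day 7, and day 2 was not tested against the later days.

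Nppa, the gene of atrial natriuretic peptide, was the most abundant of the 7 in sham hearts and showed its larger differences at days 4 and 7. At day 2 it had 2130.4, 2358, 1798, 2461 and 2078 CPM in MI hearts, against 1766, 1256, 1756, 1420.5 and 1870.1 CPM in sham hearts. Here 1 MI heart, replicate 3, lay below the highest sham heart. The day 2 difference was small, 0.33 on the log2 scale (SE 0.12, edgeR adjusted p = 0.0387). It lost its call without any 1 of 6 libraries (sham replicate 2 or 4, or MI replicate 1, 2, 4 or 5), with log2 fold changes of 0.24 to 0.34 and edgeR adjusted p-values of 0.0612 to 0.102. At day 4 it had 2712, 1286, 2512, 2707 and 2949 CPM in MI hearts, against 535, 999.8, 1284, 662 and 903 CPM in sham hearts. At day 7 the values were 3129, 3192, 2602, 2605 and 3681 CPM in MI hearts, against 1270.5, 1333, 1472, 1518 and 1095 CPM in sham hearts. Groups did not overlap at days 4 and 7, although at day 4 MI replicate 2 was only just above the highest sham heart. The log2 fold change was 1.30 at day 4 (SE 0.24, edgeR adjusted p = 0.000724) and 0.99 at day 7 (SE 0.14, edgeR adjusted p = 4.61e-05).

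The difference in Nppa between MI and sham hearts was larger at day 4 than at day 2. In a fit over all 30 libraries the change was 0.98 (SE 0.26, edgeR adjusted p = 0.0238), and Nppa was the 1 of 6 members called for this change, against 4.8% of all genes tested. The call was lost without sham day 4 replicate 4, MI day 4 replicate 1 or MI day 4 replicate 5 (0.91, 0.92 and 0.89, with edgeR adjusted p-values of 0.0568, 0.0518 and 0.0595). Nppa averaged 877 ± 293 CPM at day 4 and 1614 ± 262 CPM at day 2 in sham hearts, and 2433 ± 660 CPM at day 4 and 2165 ± 259 CPM at day 2 in MI hearts (SD, n = 5 each). These levels across days were not tested, and day 2 libraries carry another number in their names. From day 4 to day 7 the test called 0 of 6 members for a change of the difference (1.02% of all genes tested), with 1 at an unadjusted p under 0.05 and 0 called by DESeq2 or voom. From day 2 to day 7 it called 0 of 6 (19.2% of all genes tested), with 3 at an unadjusted p under 0.05, 0 called by DESeq2 and 3 by voom. The 3 at an unadjusted p under 0.05 were Nppa (0.68, edgeR adjusted p = 0.0575), Nppb (-0.76, edgeR adjusted p = 0.138) and Npr1 (0.44, edgeR adjusted p = 0.0779).

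**Figure D2:**
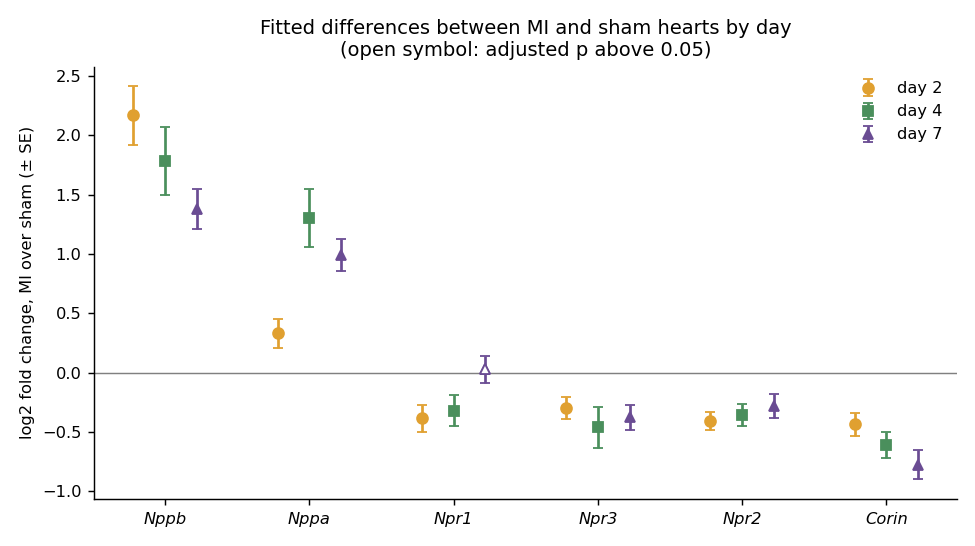
Fitted log2 fold change of MI over sham hearts with its standard error for the 6 genes tested, at days 2, 4 and 7; filled symbols passed an adjusted p of 0.05. Nppb runs through 2.17, 1.78 and 1.38 and Corin through -0.44, -0.61 and -0.78 at days 2, 4 and 7.

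Nppa followed the atrial share of each library. Atrial muscle was read from 6 marker genes: the atrial myosin light chains Myl7 and Myl4, sarcolipin (Sln), Bmp10, Mybphl and the potassium channel subunit Kcnj3. All 6 were counted in every library, and they summed to 241 to 1907 CPM in MI hearts and 714 to 2420.3 CPM in sham hearts. Taken as deviations from the group means, log2 Nppa and the mean log2 level of these markers had a Pearson r of 0.93 and a Spearman rho of 0.90 over 30 libraries, and r was 0.89 without the 2 libraries farthest out. With Myl7 alone r was 0.87 and rho 0.80. Nppb had an r of -0.22 with the same markers and -0.16 with Nppa. These correlations describe the libraries, which share depth and dissection, and carry no test. The most atrial-poor library was MI day 4 replicate 2, with 66.7 CPM of Myl7 (220 to 353 CPM in the other 4 MI hearts of that day) and the lowest Nppa of its group. Without it the day 4 log2 fold change of Nppa was 1.46 (edgeR adjusted p = 4.37e-05).

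None of the 6 atrial markers was called higher in MI hearts. Myl7 averaged 387 ± 104 CPM in MI hearts and 574 ± 138 CPM in sham hearts at day 2 (SD, n = 5 each; log2 fold change -0.67, edgeR adjusted p = 0.00855). It averaged 389 ± 115 CPM in MI hearts and 589 ± 150 CPM in sham hearts at day 7 (-0.79, edgeR adjusted p = 0.00823), and at day 4 it was not called (-0.70, edgeR adjusted p = 0.187). Kcnj3 was lower on all 3 days (-0.69, -1.33 and -1.41) and Mybphl at day 7 (-0.88). Myl4, Sln and Bmp10 were not called on any day. Bmp10 at day 4 averaged 88.8 ± 60.5 CPM in MI hearts and 29.4 ± 24.9 CPM in sham hearts (SD, n = 5 each; log2 fold change 1.44, edgeR adjusted p = 0.157), the direction of Nppa. Per library, the log2 ratio of Nppa to the mean of the 6 markers was higher in every MI heart than in every sham heart of its day. It averaged 3.73 ± 0.14 in MI hearts and 2.87 ± 0.06 in sham hearts at day 2, 4.51 ± 0.51 and 2.89 ± 0.19 at day 4, and 4.25 ± 0.04 and 2.57 ± 0.13 at day 7 (SD, n = 5 each, MI before sham). The differences of 0.86, 1.62 and 1.68 each reached the lower limit of an exact 2-sided permutation test of 5 against 5 libraries (p = 0.00794), or 0.0159 after adjustment over 24 ratio tests. Without the lung-transcript libraries the differences at days 4 and 7 were 1.54 and 1.59 (adjusted exact permutation p = 0.107 and 0.213). The ratio thus differed at day 2 as well, and at day 7 the libraries of either group lay close together. At day 2 both of its parts moved. The fitted log2 fold change of Nppa itself was 0.33, and the median of the 6 markers was -0.51.

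**Figure D3:**
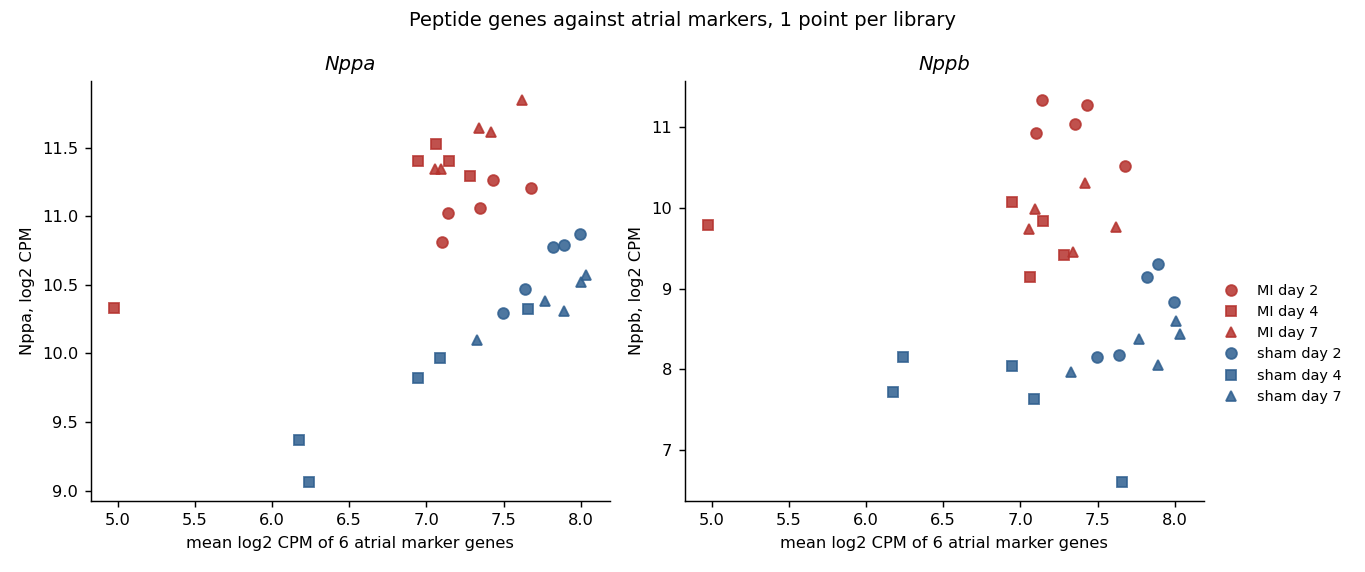
Log2 CPM of Nppa (left) and Nppb (right) against the mean log2 CPM of 6 atrial marker genes, 1 point per library, with MI in red, sham in blue and 1 symbol per day. Nppa rises with the markers within both MI and sham hearts, with MI hearts on a higher line, while Nppb has an r of -0.22 with them.

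At day 2 Nppb was higher by a larger factor than Nppa, and at days 4 and 7 no difference between their factors was called. The log2 ratio of Nppb to Nppa averaged -0.05 ± 0.38 in MI hearts and -1.92 ± 0.35 in sham hearts at day 2 (SD, n = 5 each), and the groups did not overlap (exact permutation p = 0.00794, adjusted 0.0159). At day 4 the ratio differed by 0.54 (exact permutation p = 0.381, adjusted 0.457) and at day 7 by 0.38 (exact permutation p = 0.119, adjusted 0.159), and the groups overlapped. Without the libraries with lung transcripts the day 4 difference was -0.10 (adjusted exact permutation p = 0.935). Levels of the 2 genes were compared per length of transcript. Nppb had 6447 ± 1488 in transcripts scaled to length and library (TPM) and Nppa 5941 ± 894 TPM in MI hearts at day 2 (SD, n = 5), with ranges of 4407 to 8044 and 4810 to 7195 TPM that overlapped. In sham hearts at day 2 Nppb had 1429 ± 502 TPM and Nppa 4692 ± 644 TPM. Relative to the 8 cardiac muscle markers, Nppb was higher in MI hearts by 2.65, 2.46 and 1.96 on the log2 scale at days 2, 4 and 7, and Nppa by 0.78, 1.92 and 1.58. All 6 of these ratios had groups that did not overlap and an adjusted exact permutation p of 0.0159. Without the lung-transcript libraries they were 2.12 and 2.31 for Nppb and 2.21 and 1.77 for Nppa at days 4 and 7, with adjusted exact permutation p-values of 0.107 at day 4 and 0.213 at day 7.

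Corin (ENSMUSG00000005220, chromosome 5, 72300025 to 72504473, minus strand), the pro-ANP protease, was lower in MI hearts on all 3 days. At day 2 it had 175, 186, 195, 236 and 202 CPM in MI hearts, against 274, 265, 228, 272 and 228 CPM in sham hearts. At day 4 it had 124, 161, 151, 135 and 157 CPM in MI hearts, against 236, 159, 198, 176 and 215 CPM in sham hearts. At day 7 it had 121, 140.03, 164, 118 and 137 CPM in MI hearts, against 205, 177, 178, 238 and 219.97 CPM in sham hearts. The groups were apart at day 7, where 12.2% of all genes tested were lower without overlap, and overlapped at day 2 and, by 1 MI and 1 sham heart, at day 4. The log2 fold changes were -0.44 (SE 0.10, edgeR adjusted p = 0.00227), -0.61 (SE 0.11, edgeR adjusted p = 0.000305) and -0.78 (SE 0.12, edgeR adjusted p = 0.000131) at days 2, 4 and 7. The change of the difference from day 2 to day 7 was -0.32 and was not called (edgeR adjusted p = 0.183).

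Most cardiac muscle markers were lower as well at days 4 and 7, and Corin was set against them. Of all genes tested, 22.2%, 25.2% and 26.6% were lower and 24.1%, 27.5% and 28.4% higher at days 2, 4 and 7. Of the 8 markers, 4 were lower and 1 higher at day 2, and 6 were lower and 0 higher at days 4 and 7. The log2 ratio of Corin to their mean was -3.98 ± 0.09 in MI hearts and -3.98 ± 0.12 in sham hearts at day 2, and -4.52 ± 0.14 in MI hearts and -4.53 ± 0.25 in sham hearts at day 4 (SD, n = 5 each). At those days it was not called (exact permutation p = 0.952 and 0.913). At day 7 it was -4.51 ± 0.09 in MI hearts and -4.33 ± 0.07 in sham hearts, without overlap (exact permutation p = 0.00794, adjusted 0.0159). That call was lost with the median of the marker list in place of its mean (-0.07, adjusted p = 0.707) and without the lung-transcript libraries (-0.21, adjusted p = 0.213). As deviations from the group means, Corin had an r of 0.66 with the cardiac muscle markers over 30 libraries.

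**Figure D4:**
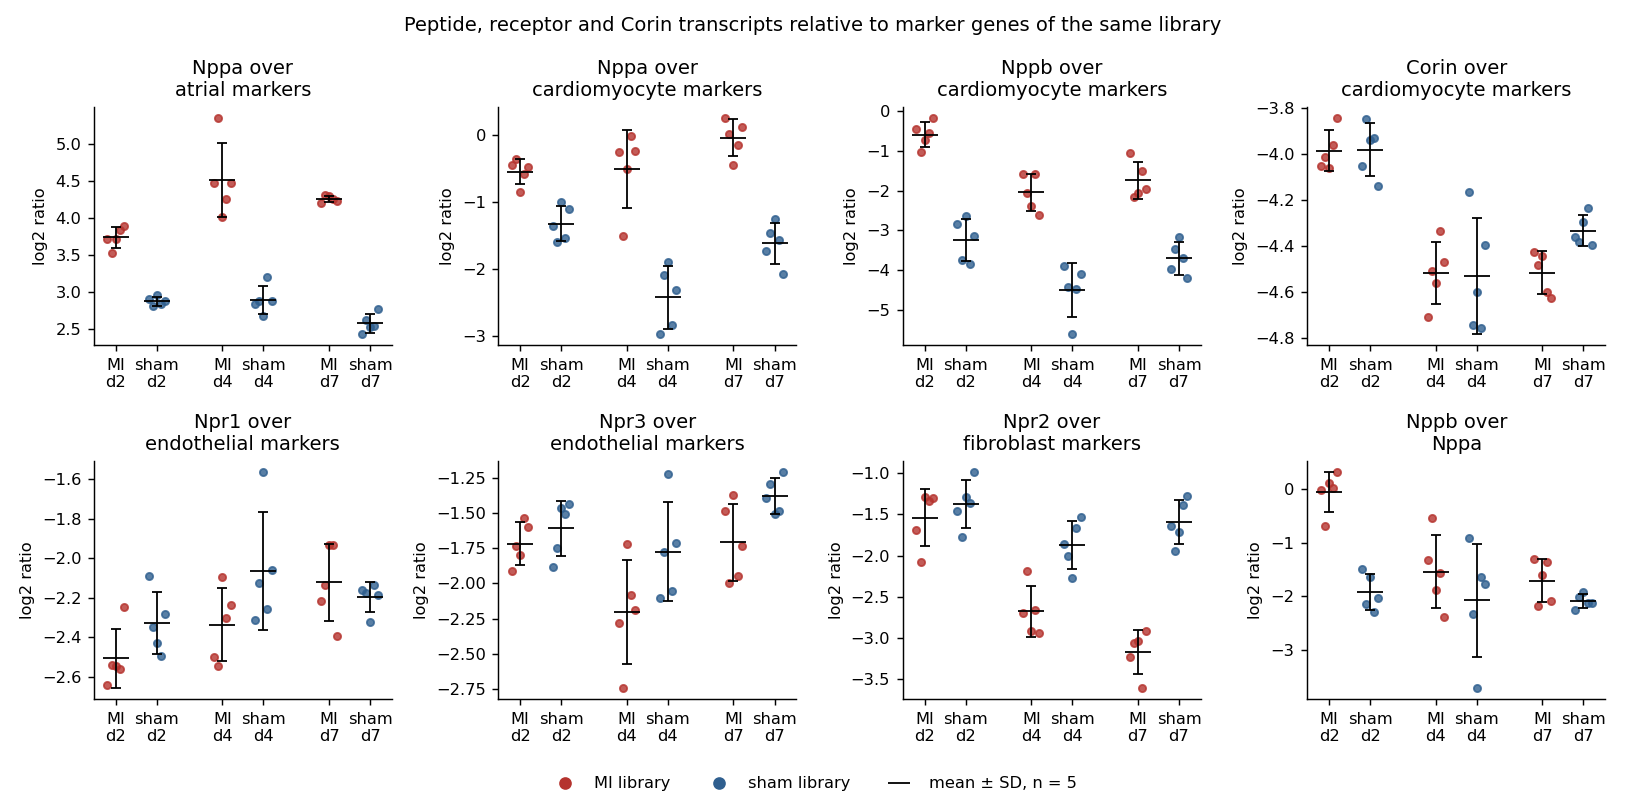
Log2 ratio of each gene to the mean of a marker list (or to Nppa) in every library, with MI left of sham at days 2, 4 and 7; points are libraries and bars the mean ± SD of 5. Nppa over atrial markers is apart on all 3 days, Corin over cardiac muscle markers overlaps at days 2 and 4, and Npr2 over fibroblast markers is lowest in MI hearts at day 7.

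Npr2 (ENSMUSG00000028469, chromosome 4, 43631935 to 43651244, plus strand), the CNP receptor, was lower in MI hearts on all 3 days. At day 2 it had 48.1, 45.1, 52.2, 51.7 and 51.0 CPM in MI hearts, against 68.0, 62.2, 59.7, 59.3 and 59.9 CPM in sham hearts. These groups did not overlap, and 10.3% of all genes tested were lower without overlap at day 2. At day 4 it ran from 46.7 to 55.6 CPM (median 49.6) in MI hearts and from 49.4 to 67.6 CPM (median 57.3) in sham hearts. At day 7 it ran from 47.0 to 63.0 CPM (median 58.0) in MI hearts and from 53.6 to 65.7 CPM (median 59.7) in sham hearts, with overlap on both days. The log2 fold changes were -0.41 (SE 0.08, edgeR adjusted p = 0.000634), -0.36 (SE 0.09, edgeR adjusted p = 0.00430) and -0.28 (SE 0.10, edgeR adjusted p = 0.0307) at days 2, 4 and 7. The day 7 call was lost without any 1 of 5 libraries: sham replicate 2, 4 or 5, or MI replicate 1 or 4 (-0.22 to -0.28, edgeR adjusted p = 0.0575 to 0.0795). Without the libraries with lung transcripts the day 7 value was -0.41 (edgeR adjusted p = 0.0716).

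Fibroblast markers moved the other way from Npr2 at day 7 and in part at day 4. They summed to 7985 to 15400.3 CPM in MI hearts and 2098 to 4404 CPM in sham hearts at day 7, and 7 of 7 were higher. At day 4, 3 of 7 were higher and 1 lower, with sums of 5874 to 10744 CPM in MI hearts and 2375 to 5076 CPM in sham hearts. The log2 ratio of Npr2 to their mean differed by -0.17 at day 2 (exact permutation p = 0.468), by -0.81 at day 4 (exact permutation p = 0.0159, adjusted 0.0293) and by -1.59 at day 7 (exact permutation p = 0.00794, adjusted 0.0159). At day 7 it averaged -3.18 ± 0.27 in MI hearts and -1.59 ± 0.27 in sham hearts (SD, n = 5 each). The day 4 call was lost with the median of the list (-0.40, adjusted p = 0.147) and without any 1 of 8 libraries (adjusted exact permutation p = 0.0544 to 0.0586), all but MI replicate 2 and sham replicate 3. Without the lung-transcript libraries the differences were -0.997 at day 4 and -1.88 at day 7 (adjusted exact permutation p = 0.107 and 0.213). As deviations from the group means, Npr2 had an r of 0.12 with the fibroblast markers over 30 libraries. With endothelial markers r was 0.52 and with cardiac muscle markers 0.43, or 0.35 and 0.37 without the 2 libraries farthest out. Whether Npr2 changed within fibroblasts was not tested.

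Npr1 (ENSMUSG00000027931, chromosome 3, 90450591 to 90465866, minus strand), the receptor of ANP and BNP, was lower in MI hearts at days 2 and 4 and was not called at day 7. At day 2 it ran from 19.1 to 23.9 CPM (median 20.4) in MI hearts and from 21.4 to 33.9 CPM (median 25.1) in sham hearts. At day 4 it ran from 24.2 to 33.6 CPM (median 29.0) in MI hearts and from 25.3 to 43.7 CPM (median 30.7) in sham hearts. At day 7 the order of the medians was turned round, with 26.3 to 38.6 CPM (median 34.7) in MI hearts and 24.7 to 31.7 CPM (median 28.8) in sham hearts. The groups overlapped on every day. The log2 fold changes were -0.39 (SE 0.12, edgeR adjusted p = 0.0133), -0.32 (SE 0.13, edgeR adjusted p = 0.0495) and 0.03 (SE 0.11, edgeR adjusted p = 0.859) at days 2, 4 and 7. The day 4 call was lost without the libraries with lung transcripts (-0.24, edgeR adjusted p = 0.134) and without any 1 of 6 libraries: sham replicate 1, 3 or 5, or MI replicate 1, 2 or 4 (-0.21 to -0.33, edgeR adjusted p = 0.0650 to 0.134).

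Npr3 (ENSMUSG00000022206, chromosome 15, 11839896 to 11907287, minus strand), the clearance receptor, was lower by 0.30 to 0.46 on the log2 scale. It ran from 31.8 to 41.3 CPM (median 37.5) in MI hearts and from 39.1 to 46.0 CPM (median 42.5) in sham hearts at day 2. At day 4 it ran from 21.1 to 41.3 CPM (median 33.7) in MI hearts and from 29.2 to 55.2 CPM (median 35.5) in sham hearts. At day 7 it ran from 38.2 to 52.9 CPM (median 43.5) in MI hearts and from 43.5 to 58.3 CPM (median 48.9) in sham hearts. Groups overlapped on every day, most widely at day 4. The log2 fold changes were -0.30 (SE 0.09, edgeR adjusted p = 0.0154), -0.46 (SE 0.17, edgeR adjusted p = 0.0385) and -0.38 (SE 0.11, edgeR adjusted p = 0.00948) at days 2, 4 and 7. Without the libraries with lung transcripts the calls at day 4 (-0.34, edgeR adjusted p = 0.126) and day 7 (-0.38, edgeR adjusted p = 0.0905) were lost. The day 4 call was also lost without any 1 of 6 libraries: sham replicate 3 or 5, or MI replicate 1, 2, 4 or 5 (-0.33 to -0.49, edgeR adjusted p = 0.0561 to 0.0884).

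The scaling between libraries bore on the receptors. The trimmed-mean factors that edgeR applied lowered MI against sham log2 ratios by 0.09, 0.18 and 0.20 at days 2, 4 and 7 relative to CPM. With library totals alone the median of all genes stood at 0.09, 0.18 and 0.21 and Npr1 and Npr3 at day 2, all 3 receptors at day 4, and Npr2 and Npr3 at day 7 lost their calls. Their log2 fold changes were then -0.30 and -0.21 at day 2 (Npr1, Npr3), -0.15, -0.18 and -0.29 at day 4 (Npr1, Npr2, Npr3) and -0.09 and -0.19 at day 7 (Npr2, Npr3). Nppa, Nppb and Corin kept their calls under that scaling. Taken relative to that shifted median, these 7 receptor values ran from -0.47 (Npr3, day 4) to -0.29 (Npr3 at day 2 and Npr2 at day 7). Npr1 at day 7 then stood at 0.01. Subtracting the median largely undoes the change of scaling, so these values are no separate check of the receptors.

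Receptor levels were also set against endothelial markers, since Npr1 and Npr3 are known from endothelium and endocardium. The ratio of Npr1 to 8 endothelial markers differed by -0.18, -0.27 and 0.07 on the log2 scale at days 2, 4 and 7, and that of Npr3 by -0.11, -0.43 and -0.33. None of these 6 differences was called by the exact permutation test (adjusted p = 0.109 to 0.537), although without MI replicate 5 that of Npr1 at day 2 was (-0.24, adjusted p = 0.0272). As deviations from the group means, Npr3 had an r of 0.70 and Npr1 an r of 0.64 with endocardial markers over 30 libraries. The value for Npr3 was 0.52 without the 2 libraries farthest out. Other lists gave similar values, with an r of 0.68 for Npr3 with atrial markers and 0.63 for Npr1 with fibroblast markers. Without the 2 libraries farthest out these were 0.42 and 0.56. With endothelial markers r was 0.08 for Npr3 and 0.54 for Npr1. Corin and Npr2 deviated together with an r of 0.68.

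Nppc (ENSMUSG00000026241, chromosome 1, 86666291 to 86670571, minus strand), the CNP gene, was near the limit of detection. The 5 libraries of a group held 0, 2, 3, 1 and 2 counts in MI hearts and 0, 3, 1, 1 and 1 in sham hearts at day 2. At day 4 they held 1, 0, 2, 8 and 1 counts in MI hearts, against 3, 3, 2, 1 and 0 in sham hearts. At day 7 they held 10, 4, 8, 8 and 2 counts in MI hearts, against 2, 4, 0, 0 and 1 in sham hearts. Day 7 MI hearts thus had the most, and the groups still overlapped. Summed over libraries, day 7 held 32 counts in MI hearts, or 0.619 CPM (exact 95% Poisson interval 0.423 to 0.873), and 7 counts in sham hearts, or 0.156 CPM (0.0629 to 0.322). These intervals cover counting error only. Over libraries the day 7 difference of means had an exact permutation p of 0.0317, or 0.0952 after adjustment over 3 days, and edgeR without a filter on low counts gave a log2 fold change of 1.73 (adjusted p = 0.0877). A difference in Nppc was not called at this depth.

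Set in order by TPM, which divides by transcript length, the members spanned a wide range. In sham hearts of day 2 the order was Nppa (4692 TPM), Nppb (1429 TPM), Corin (119 TPM), Npr2 (33.6 TPM), Npr1 (10.3 to 18.9 TPM), Npr3 (11.5 TPM) and Nppc (0.233 TPM). Npr1 and Npr3 were the neighbours that did not differ beyond their spread, since Npr3 ran from 10.2 to 12.8 TPM. The other values of this order are means of 5 libraries. In MI hearts of day 7 the order from the top was Nppa (8310 TPM), Nppb (2810.2 TPM), Corin (60.1 TPM), Npr2 (28.4 TPM), Npr1 (16.5 TPM), Npr3 (11.1 TPM) and Nppc (1.37 TPM). There too Npr1 (10.8 to 20.2 TPM) and Npr3 (9.14 to 14.1 TPM) overlapped. Npr2, which ran from 19.9 to 33.8 TPM, also overlapped Npr1 there.

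Within 1 operation, day 7 was tested against day 4, which share a number in their library names. In MI hearts at day 7 against day 4 the test called 1 of 6 members (12.6% of all genes tested), Npr3, at 43.8 ± 6.14 CPM at day 7 and 31.8 ± 7.62 CPM at day 4 (SD, n = 5 each; log2 fold change 0.46, edgeR adjusted p = 0.0245). It lost that call without MI day 4 replicate 1 or 2 or MI day 7 replicate 3 (0.41, 0.34 and 0.37, with edgeR adjusted p-values of 0.0663, 0.0959 and 0.0779). In sham hearts at day 7 against day 4 it called 0 of 6 (0.122% of all genes tested), with 3 at an unadjusted p under 0.05, 0 called by DESeq2 and 1 by voom. The largest of these sham differences was that of Nppa, 0.61 (edgeR adjusted p = 0.204).

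Genes whose library-to-library deviations were most like those of each member were found among 11785 genes of at least 5 CPM on average. For Nppa they were Mybphl, Myl7 and Myl4 (r = 0.88, 0.87 and 0.87 over 30 libraries), which are 3 of the atrial markers. For Nppb they were Myl12a, Eif5 and Popdc3 (r = 0.84, 0.80 and 0.79). For Corin they were Ubr2, Safb and Pdzd2 (0.86, 0.83 and 0.82), for Npr1 Nynrin, Col4a6 and Epb41l1 (0.84, 0.83 and 0.82) and for Npr2 Rapgef5, Lrp5 and Pou6f1 (0.77, 0.76 and 0.76). The nearest of Npr3 were Podn, Dkk3 and Smoc1 (0.75, 0.74 and 0.73), which fell to 0.54, 0.58 and 0.53 without the 2 libraries farthest out. For the genes named with the other members, r was then 0.69 (Pou6f1 with Npr2) to 0.84 (Myl4 with Nppa). Picking the highest of 11785 genes by itself raises r, and no test was made.

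Of 8 tested genes of convertases, degrading enzymes and partners of the peptides, 4 were lower and 1 higher at day 2. At day 4, 2 were lower and 1 higher, and at day 7, 2 were lower and 2 higher. Over all genes tested, 22.2%, 25.2% and 26.6% were lower and 24.1%, 27.5% and 28.4% higher at days 2, 4 and 7, so the counts at days 4 and 7 lay near the background. Their median log2 fold changes were -0.34, -0.24 and -0.11, beside -0.01, 0.01 and 0.01 over all genes tested at days 2, 4 and 7. Mme, which encodes neprilysin, the protease that degrades the peptides and a target of heart failure drugs, was lower on all 3 days. It averaged 7.59 CPM in MI hearts and 19.8 CPM in sham hearts at day 2, 9.07 and 21.4 CPM at day 4, and 12.03 and 23.0 CPM at day 7 (MI before sham). Its log2 fold changes were -1.47, -1.41 and -1.14 (edgeR adjusted p = 1.36e-06, 8.09e-07 and 0.00380). The convertase Pcsk6, known to activate corin, was lower at day 2 (-1.38, edgeR adjusted p = 0.000303) and day 4 (-0.96, edgeR adjusted p = 7.54e-05). Furin, which cuts pro-BNP, was higher at day 2 (0.21, edgeR adjusted p = 0.0265) and day 4 (0.38, edgeR adjusted p = 0.00176). At day 7 the convertase Pcsk5 (0.83) and the endothelin-converting enzyme Ece1 (0.37) were higher and the insulin-degrading enzyme Ide (-0.36) lower. Dpp4 was lower at day 2 (-0.76). In this list and those of the next paragraphs, up to 3 called genes per direction are named for each day. A gene may thus also have been called on a day not given for it.

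Of 19 other genes of cyclic GMP signalling, 17 were tested at days 2 and 7 and 18 at day 4. At day 2, 5 were higher and 4 lower, at day 4, 4 were higher and 2 lower, and at day 7, 9 were higher and 3 lower. The same shares of all genes apply, and the counts at day 2 lay near them and those at day 4 below them. The median log2 fold changes were -0.23, 0.09 and 0.41 at days 2, 4 and 7. The calcium-dependent phosphodiesterases Pde1b (1.51, 1.04 and 1.95) and Pde1a (0.51, 0.99 and 1.20) were higher on all 3 days. Vasp, a classic substrate of cyclic GMP-dependent kinase, was higher at day 2 (0.80) and day 4 (0.82), and Rgs4 was lower at day 2 (-0.43) and higher at day 7 (0.83). The soluble guanylyl cyclase subunit Gucy1a1 was lower at day 2 (-0.57) and day 4 (-0.56). Pde3a, which cyclic GMP inhibits, was lower at day 4 (-0.70) and day 7 (-0.63). Mrvi1 was lower at day 2 (-0.39) and day 7 (-0.60) and Pde1c at day 7 (-0.34).

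Of 18 transcription factors known to act on the Nppa or Nppb promoter, 0 were higher and 4 lower at day 2 (all 18 tested), 1 higher and 10 lower at day 4, and 3 higher and 10 lower at day 7. Over all genes tested 22.2%, 25.2% and 26.6% were lower and 24.1%, 27.5% and 28.4% higher on these days. The day 2 count of lower factors was thus at the background, and those at days 4 and 7 lay above it. The counts of higher factors lay below it at days 2, 4 and 7. The list was not tested as a set. The 1 higher factor at day 4 was Nfatc4 (0.44), a target of calcineurin, and at day 7 the higher ones were Nfatc4 (1.11), Tbx20 (0.34) and Klf13 (0.21). The median log2 fold changes were -0.10, -0.28 and -0.42 at days 2, 4 and 7. Tbx3, a repressor of Nppa, was lower at day 2 (-0.83) and day 4 (-0.86), and the activator Tbx5 was lower at day 2 (-0.41) and day 7 (-0.83). Mef2a was lower at day 2 (-0.34), Gata6 (-0.73) and Hey2 (-0.64) at day 4, and Nkx2-5 (-0.65) and Mef2d (-0.63) at day 7. With up to 3 named per direction and day, the days given for a factor need not be all on which it was called.

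**Figure D5:**
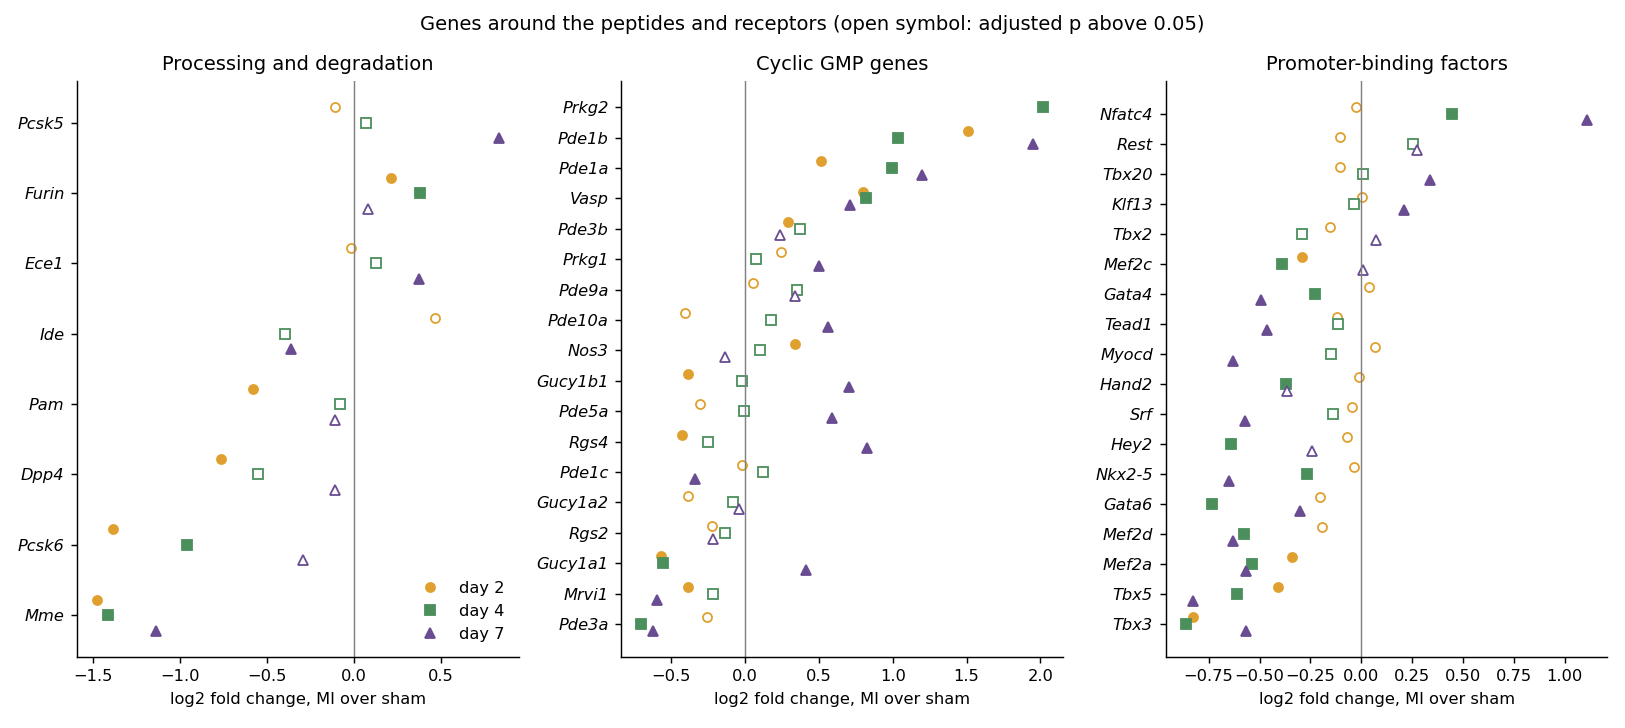
Log2 fold change of MI over sham hearts at days 2, 4 and 7 for tested genes of peptide processing and degradation, cyclic GMP signalling and promoter binding; filled symbols passed an adjusted p of 0.05. Mme lies at -1.47, -1.41 and -1.14 and Pde1b at 1.51, 1.04 and 1.95 at days 2, 4 and 7.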

How the data were processed

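Read counts per Ensembl gene from 30 libraries of mouse heart RNA were analysed as deposited. Per the labels, libraries were directional and made from purified mRNA, and per the submitters' processing notes the authors used bcl2fastq 2.20.0 and featureCounts on GRCm38; aligner and strandedness of counting: not given in the sources used here. Antisense genes overlap Nppa (Gm13054, 4 to 70 counts), Npr1 (Gm16048, 0 to 2) and Npr2 (Gm12473, 9 to 35), and reads could not be assigned between strands. Totals of 7841930 to 14070017 counts set the precision.

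Differences were tested with edgeR 4.0.16 (TMM, filterByExpr with a minimum of 10 counts, robust quasi-likelihood), called at an adjusted p under 0.05, using the 10 libraries of a day or all 30 for comparisons between days. Standard errors are the log2 fold change divided by the root of F. CPM and TPM were computed from the counts, TPM with exon lengths. Ratios added 0.5 counts and used exact 2-sided permutation tests (scipy 1.17.1). The code was tested on simulated data. DESeq2 1.42.0, limma 3.58.1 and other settings were alternatives. Named were all 7 members, the atrial markers, the 3 genes most like each member, and in the other lists up to 3 called genes per direction and day with at least 1 CPM. Members, lists and tests were chosen with earlier results of these data known.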

Additional observations from a re-analysis of the deposited data

Results flagged for a closer look

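In MI hearts of day 4, replicate 2 had 1286 CPM of Nppa, far below the other 4, which had 2512 to 2949 CPM. The 6 atrial markers summed to 241 CPM in that library and to 1057 to 1359 CPM in the others of its group. Its part in other results was not tested beyond leaving it out, where the log2 ratio of Nppa to the atrial markers at day 4 differed between MI and sham hearts by 1.41 (adjusted exact permutation p = 0.0293) and the change of the Nppa difference from day 2 to day 4 was 1.12 (edgeR adjusted p = 0.00341). Replicate 4 of the same group had 0.784 CPM of Nppc (8 counts), against 0 to 0.188 CPM in the other 4. Of 42 groups of 5 libraries looked at in this way, 2 held such a value, and chance gives about 1 in 20.

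The difference of Nppa between MI and sham hearts was larger at day 4 than at day 2, by 0.979 on the log2 scale (SE 0.26, edgeR adjusted p = 0.0238). Atrial markers summed to 714 to 1706 CPM in sham hearts of day 4 and to 1392 to 2190.3 CPM in sham hearts of day 2; their part in this change was not tested.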

How the results depend on the processing

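Members are counted as called out of 6 tested. A test against a fold change of 1.5 called 1, 2 and 2 at days 2, 4 and 7, 0 for the change from day 2 to day 4 and 0 in MI hearts at day 7 against day 4. Library totals without composition factors called 3 at day 4 and 3 at day 7, and moved the split of all genes called to 4375 higher of 6723, 5569 of 7822 and 5768 of 8196 at days 2, 4 and 7, against 3498 of 6723, 3968 of 7597 and 4119 of 7976. Without the libraries with lung transcripts 3 were called at day 7, likewise 3 without those with lung or skeletal muscle transcripts; leaving out both kinds and using library totals were added after seeing the data. Limma voom called 3 for the change from day 2 to day 7, 0 in MI hearts at day 7 against day 4 and 1 in sham hearts. A fit of only the groups compared called 1 for the change from day 2 to day 7 and 0 in MI hearts at day 7 against day 4. Leaving out 1 library at a time gave 0 to 1 called for the change from day 2 to day 4, 0 to 1 for day 2 to day 7 and 0 to 1 in MI hearts at day 7 against day 4. Of 24 ratios, 13 were called (12 to 14 leaving out 1 library) and 4 without the libraries with lung transcripts, where 4 against 2 libraries at day 7 cannot give a p under 0.133 and 5 against 3 at day 4 none under 0.0357. No called result reversed. Several values that were not called changed sign under some alternative, among them, without the lung-transcript libraries, Nppb over Nppa at day 4 (-0.10, against 0.54 with all libraries) and the Nppb change from day 4 to day 7 (0.03, against -0.38). A fit of all 30 libraries called 4 at day 2, where Nppa had an adjusted p of 0.170 and Npr3 of 0.0533. With the replicate number as a block, 6, 6 and 5 were called at days 2, 4 and 7, as without it; same-numbered libraries correlated at -0.28 to 0.26, so the numbers were not taken as pairs. Except where stated, causes were not tested. Nppc was too shallow for the main test; depth was not tested for the others.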

Other observations

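Several genes near Nppb and Nppa on chromosome 4 were looked at as well. Clcn6, a chloride and proton exchanger that lies 2180 bp from Nppa, was not called on any day (log2 fold changes of MI over sham -0.08, -0.07 and -0.26 at days 2, 4 and 7). Mfn2, which fuses mitochondria, was lower on all 3 days (-0.44, -0.67 and -0.91, edgeR adjusted p at most 0.00166). It averaged 751 CPM in MI hearts and 1232 CPM in sham hearts at day 7. The lysyl hydroxylase gene Plod1 was higher at day 4 (0.23, edgeR adjusted p = 0.0376) and was not called at days 2 and 7. Agtrap and 2510039O18Rik were not called on any day.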
